A study of Mus musculus with 30 samples.

Results

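Fractalkine, the chemokine encoded by Cx3cl1, and its receptor, encoded by Cx3cr1, were followed through 30 libraries of mouse bone marrow derived macrophages. These are 2 of the 30538 genes in the deposited table of counts. The pair was chosen by its measured values, its pattern over the 10 groups in an earlier look at the same counts. Their levels and fold changes are therefore given as description, with no p-value, and p-values appear below only for other genes.

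The macrophages were grown from C57BL/6 mice (wild type, WT) or from Ch25h-/- mice, which lack cholesterol 25-hydroxylase, the enzyme that makes 25-hydroxycholesterol (25HC) from cholesterol. With LPS, the lipopolysaccharide of bacterial cell walls, at 10 ng/mL for 18 h, there were 5 groups: WT cells exposed for 18 h beforehand to 25HC at 5 µM, to the azole antifungal itraconazole at 1 µM or to the plant saponin OSW-1 at 0.3 µM, untreated Ch25h-/- cells and untreated WT cells. The same 5 groups were harvested with no LPS, at time 0. No group was kept for the 18 h without LPS. Every difference between LPS-treated and unstimulated cells below therefore also holds that further time in culture, and LPS and time cannot be told apart. Each group held 3 libraries, from mice numbered 1 to 3 within a genotype. The titles name the untreated, unstimulated libraries as controls for OSBP, a sterol-carrying protein that 25HC, itraconazole and OSW-1 are known to bind. No vehicle is named for the untreated cells, and it is not stated whether a compound stayed on during LPS. The compounds were used at different concentrations, so their values are set side by side and are not tested against each other.

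Library totals ran from 23656860 to 43922154 counts. Of the libraries, 20 held even counts only, as if every read had been counted double, and 10 held odd counts as well (46.1 to 51.4% of genes with a count). Those 10 were all 3 OSW-1 libraries with LPS, all 6 Ch25h-/- libraries and mouse 3 of unstimulated 25HC. Levels are CPM, counts scaled per library to a common total, in which a doubling of a whole library cancels, and read numbers below count doubled reads once. Ch25h itself was at 0 to 0.277 CPM in unstimulated Ch25h-/- libraries, against 1.42 to 2.24 CPM in unstimulated WT libraries. With LPS it was at 0 to 0.225 CPM in Ch25h-/- libraries, against 0.973 to 2.34 CPM in WT libraries, without overlap in either pair, but at this low level neither difference passed the test (adjusted p = 0.0941 and 0.107).

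Fractalkine is made as a transmembrane protein with the chemokine domain on a mucin stalk. In that form it holds leukocytes that carry CX3CR1, and metalloproteinases of the ADAM family cut it to release a soluble attractant. CX3CR1 is a Gi-coupled receptor best known on microglia, on patrolling (nonclassical) monocytes and on several resident macrophage populations. In microglia its expression is known to depend on transforming growth factor beta, while fractalkine is classically made by neurons, epithelium and activated endothelium.

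In GRCm38, Cx3cl1 (ENSMUSG00000031778) lies on the plus strand at chr8:94772180-94782427, and Cx3cr1 (ENSMUSG00000052336) on the minus strand at chr9:120048683-120068296, by RefSeq. The 30 bases around the motif match nearest each RefSeq start are shown because they differ between the genes. Both come from RefSeq with build GRCm38.p6. The capitals mark the letters of a TATA box in the ligand gene and, in the receptor gene, the reverse complement of CCAAT. Both windows lie within exons of longer annotated transcripts.
Cx3cl1, chr8:94772162-94772191, plus strand: ctgccagcccatTATAAAaagcaaccgaga
Cx3cr1, chr9:120068311-120068340, minus strand: aaaccagatgctATTGGctaacttcgaaaa
The 250 bases before each start were searched on both strands. The TATA box letters (TATAAA), found 6 to 1 bases before the Cx3cl1 start, were present in 12.4% of 32851 RefSeq promoters. The same Cx3cl1 window held GAGGAA, the core motif of the myeloid factor PU.1 (23.3% of promoters), 93 to 88 bases before the start. Its reverse complement stood at 66 to 61 bases. The Cx3cr1 window held ATTGG, the reverse complement of CCAAT (33.8% of promoters), 32 to 28 bases before the start. It also held AGATA (26.6%) at 63 to 59 bases. Neither window matched AP-1 (TGANTCA, 6.75% of promoters), the interferon-stimulated response element (2.98%), the NF-kappaB motif (7.25%) or the cyclic AMP element core TGACG (17.8%). These matches and absences describe letters in 1 short window per gene and nothing about binding.

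Before LPS, Cx3cr1 was far higher with every compound than without. OSW-1 libraries stood at 163, 202 and 202 CPM (mice 1, 2 and 3). Itraconazole libraries stood at 183, 164 and 135 CPM, and 25HC libraries at 70.6, 70.8 and 40 CPM. Untreated WT libraries stood at 7.7, 8.23 and 11 CPM. Every compound library lay above every untreated one, with group means of 189 ± 22.4 CPM for OSW-1, 161 ± 24.4 CPM for itraconazole, 60.5 ± 17.7 CPM for 25HC and 8.97 ± 1.75 CPM for untreated WT (SD, n = 3 each). The log2 fold changes were 4.40 ± 0.51 for OSW-1, 4.17 ± 0.51 for itraconazole and 2.76 ± 0.48 for 25HC (± standard error throughout). In size, 23 of the 13173 genes tested had a higher fold change with OSW-1, 18 with itraconazole and 59 with 25HC. The OSW-1 and itraconazole libraries overlapped, and the 25HC libraries lay below both, at doses that differ. In unstimulated Ch25h-/- cells Cx3cr1 was at 6.62, 5.85 and 5.45 CPM, just below the WT libraries (log2 fold change -0.58 ± 0.51).

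Without LPS, many genes separated the groups. The libraries did not overlap in 53.6% of tested genes for OSW-1, 49.2% for itraconazole, 46.7% for 25HC and 21% for Ch25h-/-. Genes called at an adjusted p under 0.05 (edgeR, over all genes tested) made up 37.3%, 26.8%, 28.7% and 0.00759% in the same order. The last is 1 gene (1717 at an unadjusted p under 0.05), and a block on the mouse made it 139. That block does not suit this comparison. Genotypes are compared between mice, and the block takes differences between mice out of the error.

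**Figure D1:**
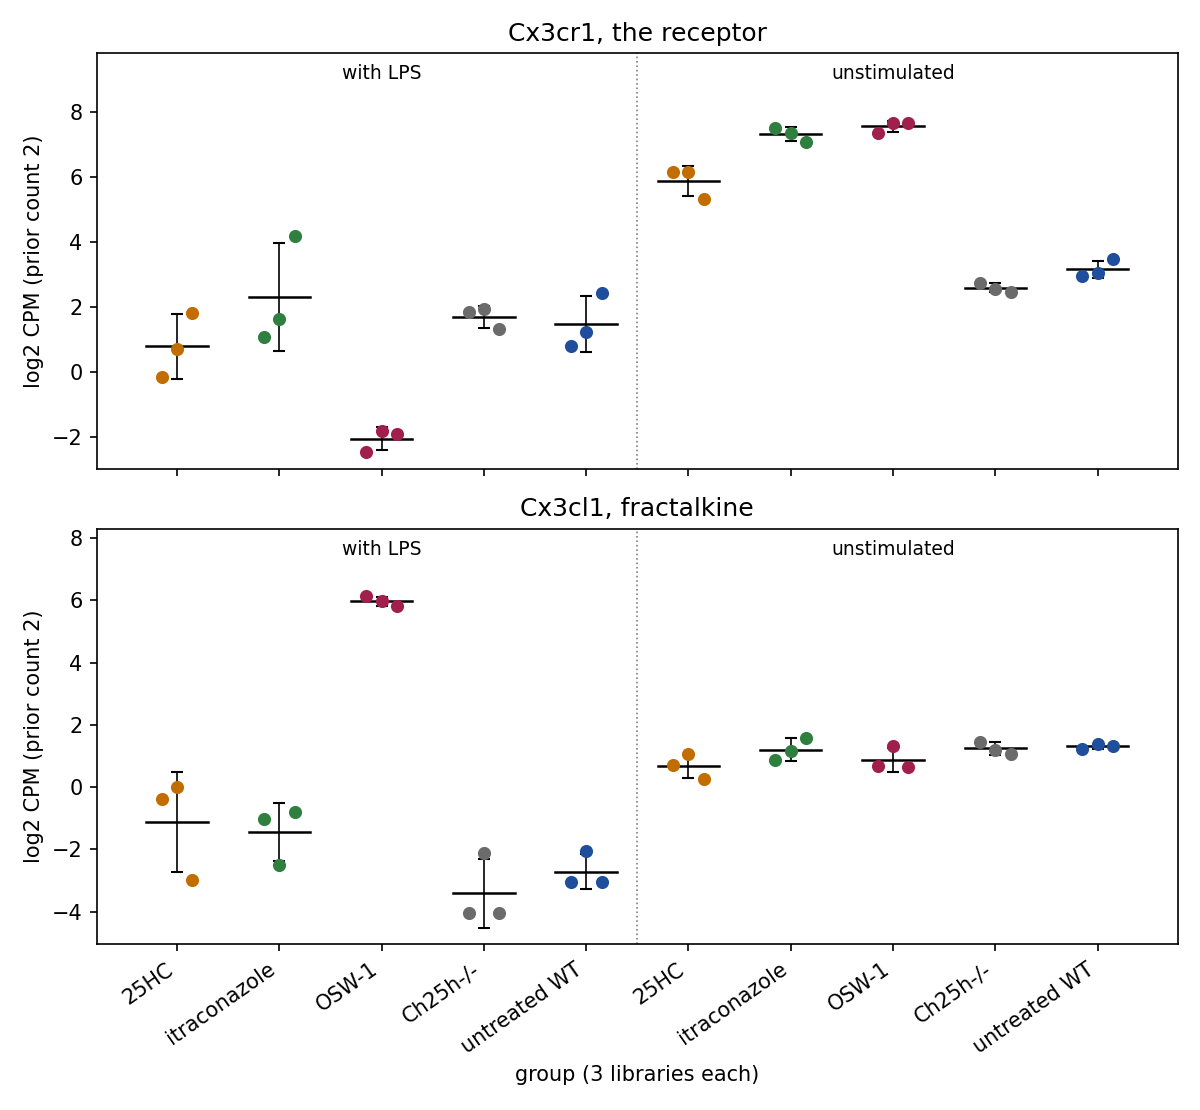
Level of Cx3cr1 (top) and Cx3cl1 (bottom) in each library as log2 CPM with a prior count of 2, by group, with LPS on the left and unstimulated on the right; points are mice 1 to 3, bars the mean and SD of 3 libraries. The receptor is highest in unstimulated OSW-1 and itraconazole cells, and the ligand stands alone in OSW-1 cells with LPS, at 56.4 to 69.5 CPM.

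With LPS the order of the receptor levels was another one. OSW-1 libraries held 0.12, 0.224 and 0.206 CPM of Cx3cr1, from 3, 6 and 6 reads. Itraconazole libraries held 2.05, 3.04 and 18.2 CPM, and 25HC libraries 0.829, 1.56 and 3.46 CPM. Ch25h-/- libraries held 3.56, 3.76 and 2.41 CPM, and untreated WT libraries 1.66, 2.28 and 5.35 CPM. The OSW-1 libraries lay below all others, while 25HC, itraconazole and Ch25h-/- libraries each overlapped the untreated ones. Mouse 3 gave the highest value in the 25HC, itraconazole and untreated WT groups, and the itraconazole mean of 7.78 ± 9.08 CPM (SD, n = 3) was set by it.

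The log2 fold change of Cx3cr1 in LPS-treated cells was -4.03 ± 0.98 for OSW-1 against untreated WT. The summed reads, 15 for OSW-1 and 153 for untreated WT, put the receptor 16.7 times lower with OSW-1 (95% interval 9.8 to 30.5, counting error only). For 25HC the log2 fold change was -0.69 ± 0.61, for itraconazole 1.33 ± 0.53 and for Ch25h-/- 0.07 ± 0.60. Without mouse 3 of the itraconazole group the itraconazole value was -0.28, and without mouse 3 of the 25HC group the 25HC value was -1.34. Without mouse 3 of the untreated WT group, the values were -3.38 for OSW-1, -0.04 for 25HC, 1.99 for itraconazole and 0.72 for Ch25h-/-.

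Cx3cl1 was far higher in 1 group than in any other. OSW-1 libraries with LPS held 69.5, 62.2 and 56.4 CPM, from 1733, 1663 and 1640 reads (mean 62.7 ± 6.59 CPM, SD, n = 3). The highest of the other 27 libraries held 2.93 CPM. Among LPS-treated cells, 25HC libraries held 0.701, 0.938 and 0.0666 CPM and itraconazole libraries 0.435, 0.115 and 0.515 CPM. Ch25h-/- libraries held 0, 0.169 and 0 CPM and untreated WT libraries 0.0615, 0.18 and 0.0608 CPM. Those 4 groups overlapped one another, at 30, 18, 4 and 5 reads summed over each group's libraries.

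For OSW-1 with LPS the ligand's log2 fold change against untreated WT was 9.22 ± 0.51, and 8 of the 13173 tested genes had a higher one. From 5036 and 5 reads the ratio was 616 (95% interval 264 to 1900, counting error only). The fitted values for 25HC with LPS, 2.50 ± 0.70, and itraconazole with LPS, 1.77 ± 0.76, rest on few reads, and their libraries overlapped the untreated ones. For Ch25h-/- with LPS the value was -0.76 ± 1.23. Without mouse 2 of the untreated WT group, these values were 9.92 for OSW-1, 3.19 for 25HC, 2.46 for itraconazole and -0.07 for Ch25h-/-. The 25HC value was 1.90 without its own mouse 2, and the Ch25h-/- value -4.81 without its own. Libraries did not overlap in 70.4% of tested genes for OSW-1 with LPS, 50.4% for itraconazole, 43% for 25HC and 9.69% for Ch25h-/-. Called genes made up 71.4%, 54.4%, 41.8% and 0.228% in that order. The last is 30 genes, or 203 with a block on the mouse, which does not suit a comparison between mice.

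Unstimulated cells differed little in Cx3cl1. OSW-1 libraries held 1.52, 2.44 and 1.51 CPM, itraconazole libraries 1.76, 2.18 and 2.93 CPM and 25HC libraries 1.57, 2.02 and 1.15 CPM. Ch25h-/- libraries held 2.69, 2.25 and 2.04 CPM and untreated WT libraries 2.27, 2.55 and 2.42 CPM. Only the 25HC libraries lay wholly below the untreated WT ones, by a log2 fold change of -0.60 ± 0.36. Values for the others against WT were -0.40 ± 0.35 for OSW-1, -0.07 ± 0.35 for itraconazole and -0.05 ± 0.36 for Ch25h-/-.

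Ranked by group mean, Cx3cl1 ran from OSW-1 with LPS through the unstimulated groups (untreated WT, Ch25h-/-, itraconazole, OSW-1, 25HC) to the other LPS groups (25HC, itraconazole, untreated WT, Ch25h-/-). Neighbours in that order were apart, library by library, only at the first step and between unstimulated 25HC and 25HC with LPS. Cx3cr1 ran from unstimulated OSW-1 through itraconazole, 25HC and untreated WT to itraconazole with LPS, unstimulated Ch25h-/-, then Ch25h-/-, untreated WT, 25HC and OSW-1 with LPS. Its neighbours were apart between unstimulated itraconazole and 25HC, unstimulated 25HC and untreated WT, unstimulated and LPS-treated Ch25h-/-, and 25HC and OSW-1 with LPS. Of all genes tested, 68.5% were apart between unstimulated and LPS-treated 25HC cells and 65.2% between unstimulated and LPS-treated Ch25h-/- cells. Between unstimulated 25HC and untreated WT cells the share was 46.7%. For the other pairs that were apart no share was counted, so those separations have no background beside them.

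LPS therefore went with less ligand message in 4 of the 5 backgrounds and with more in OSW-1 cells. The log2 fold change of Cx3cl1, LPS over unstimulated, was 5.10 ± 0.36 in OSW-1 cells, -2.68 ± 0.45 in itraconazole cells, -1.42 ± 0.43 in 25HC cells, -5.23 ± 0.71 in Ch25h-/- cells and -4.52 ± 0.57 in untreated WT cells. Within mice 1, 2 and 3, the log2 CPM difference was 5.46, 4.64 and 5.17 in OSW-1 cells, against -4.26, -3.44 and -4.35 in untreated WT cells. The difference between the OSW-1 and untreated responses was 9.62 ± 0.63. With 25HC it was 3.10 ± 0.79, with itraconazole 1.84 ± 0.84 and for Ch25h-/- against WT -0.71 ± 1.28. The Ch25h-/- value is -4.76 without mouse 2 of the LPS-treated Ch25h-/- cells, which holds all 4 of their reads, and the LPS response in Ch25h-/- cells is then -9.28. Without mouse 2 of the LPS-treated untreated WT cells, the WT response is -5.22 and the differences are 10.31 for OSW-1, 3.79 for 25HC, 2.53 for itraconazole and -0.01 for Ch25h-/-. Without mouse 2 of the LPS-treated 25HC cells, the 25HC response is -2.02 and its difference 2.50. These responses share the untreated WT libraries.

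Cx3cr1 was lower with LPS in all 5 backgrounds, and by the most in OSW-1 cells. Its log2 fold change was -9.96 ± 0.79 in OSW-1 cells, -4.36 ± 0.51 in itraconazole cells, -4.97 ± 0.57 in 25HC cells, -0.88 ± 0.57 in Ch25h-/- cells and -1.53 ± 0.53 in untreated WT cells. Without mouse 3 of the LPS-treated untreated WT cells, the WT value is -2.18. Within mice 1, 2 and 3, the log2 CPM difference was -9.82, -9.47 and -9.57 in OSW-1 cells, against -2.17, -1.83 and -1.03 in untreated WT cells. In OSW-1 cells, 15 reads with LPS stood against 11476 unstimulated, a level 1010 times lower (95% interval 611 to 1800, counting error only), and 21 tested genes had a lower fold change. The OSW-1 response minus the untreated one was -8.43 ± 1.01. The 25HC response differed by -3.44 ± 0.77 and the itraconazole response by -2.83 ± 0.72, while Ch25h-/- differed from WT by 0.65 ± 0.78. Without mouse 3 of the LPS-treated untreated WT cells, these differences are -7.78 for OSW-1, -2.80 for 25HC, -2.18 for itraconazole and 1.30 for Ch25h-/-. Without mouse 3 of the LPS-treated compound group, the response is -5.63 and the difference -4.10 for 25HC, and -5.97 and -4.45 for itraconazole.

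For both genes, LPS and unstimulated libraries did not overlap in any of the 5 backgrounds. The same held for 76.2% of tested genes in OSW-1 cells, 70.8% in itraconazole, 68.5% in 25HC, 65.2% in Ch25h-/- and 61.8% in untreated WT cells. Called genes made up 71.3%, 67%, 63.9%, 57.2% and 60.9% in that order. Differences of LPS responses were called in 51.7% of tested genes for OSW-1, 26.3% for itraconazole and 12.3% for 25HC. For Ch25h-/- against WT edgeR called 0%, with 1476 genes at an unadjusted p under 0.05 and 8 called by DESeq2. Over all 13 comparisons of 2 groups, libraries did not overlap in 10 for Cx3cr1 and in 7 for Cx3cl1. The share of tested genes without overlap ran from 9.69% (Ch25h-/- with LPS) to 76.2% (LPS in OSW-1) over those comparisons. Such a count is therefore usual for a tested gene and sets neither member apart.

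**Figure D2:**
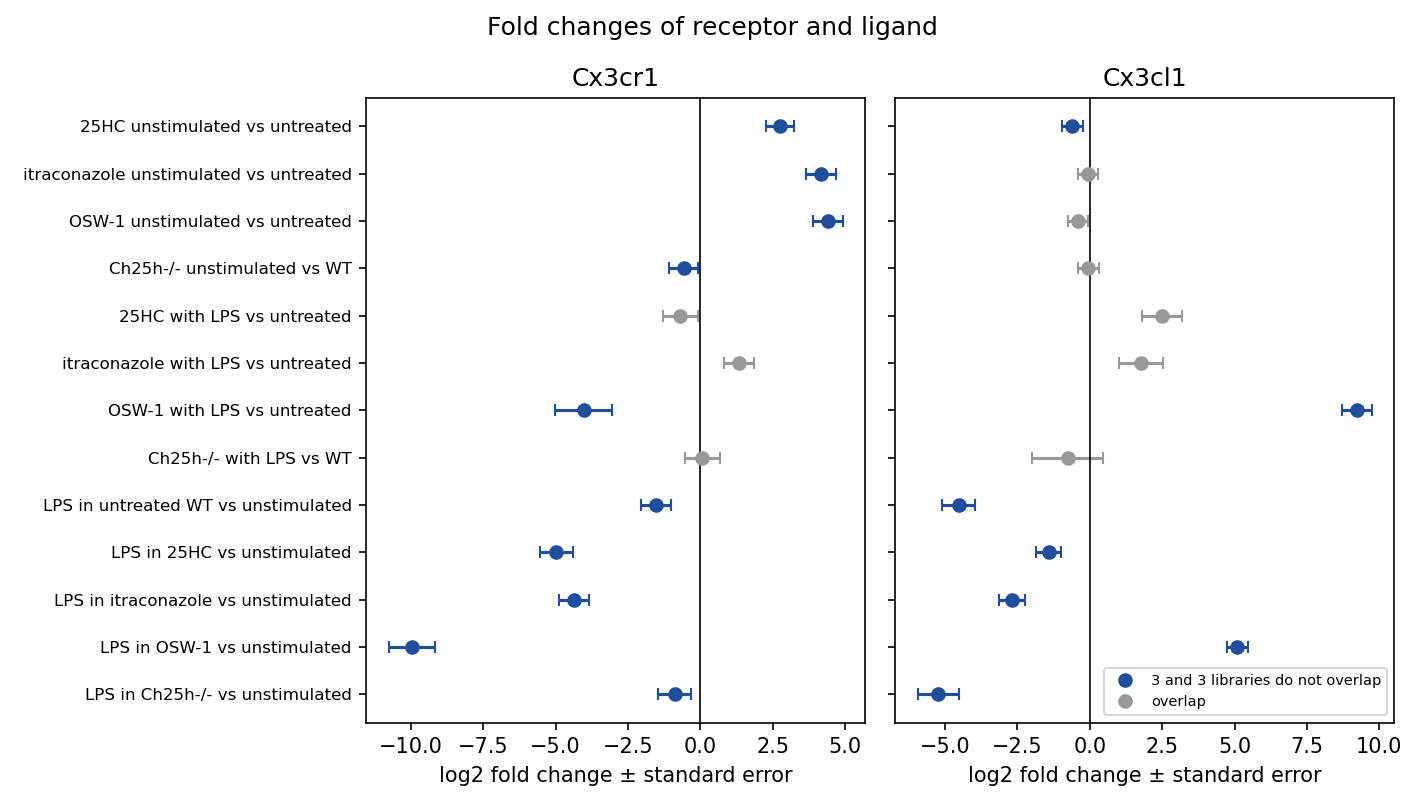
Log2 fold change ± standard error (edgeR) of Cx3cr1 and Cx3cl1 in the 13 comparisons of 2 groups, 3 libraries each; blue points mark comparisons whose libraries do not overlap, grey points those that do. OSW-1 cells with LPS sit at -4.03 for the receptor and 9.22 for the ligand against untreated WT cells.

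The balance of the 2 messages was set against transcript length, as CPM per kilobase of exon (RPKM) over exon lengths of 3930 bases for Cx3cl1 and 4505 bases for Cx3cr1. In OSW-1 cells with LPS the ligand stood at 16 ± 1.68 RPKM and the receptor at 0.0408 ± 0.0123 RPKM, and each library held 313 to 662 times more ligand than receptor. In unstimulated OSW-1 cells the receptor exceeded the ligand by 72 to 117 times, in unstimulated itraconazole cells by 40.1 to 91.1 times and in unstimulated 25HC cells by 30.5 to 39.2 times. Unstimulated Ch25h-/- cells held 2.14 to 2.34 times and unstimulated untreated WT cells 2.81 to 3.96 times more receptor than ligand. OSW-1 with LPS was the group in which the ligand was the more abundant in all 3 libraries. Over the 10 group means of log2 CPM the pair had a Pearson r of -0.1, as a description of groups that share libraries' genotype and depth.

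**Figure D3:**
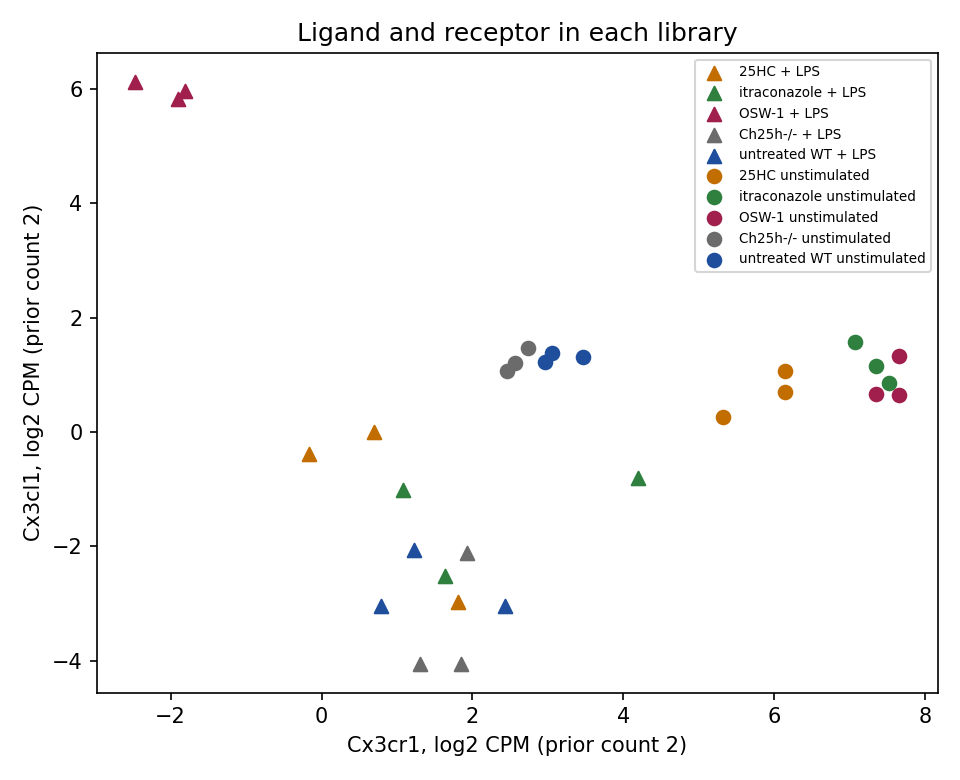
Cx3cl1 against Cx3cr1 in each of the 30 libraries, both as log2 CPM with a prior count of 2; triangles are LPS-treated and circles unstimulated libraries, coloured by treatment or genotype. OSW-1 cells with LPS lie alone at upper left, and unstimulated compound-treated cells extend to the right at a nearly level ligand.

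By likeness over the 10 group means, among 10065 genes with an average log2 CPM of at least 2, the closest to Cx3cr1 were Cxcl14 (r = 0.961), a CXC chemokine, Pald1 (0.958), the zinc transporter Slc39a10 (0.954), Cttnbp2nl (0.95), Arhgap25 (0.946), the signalling adaptor Dok2 (0.946), B3gntl1 (0.944) and the folate carrier Slc19a1 (0.943). Over single libraries their r lay between 0.763 and 0.942. Cxcl14 was at 19.9 ± 7.31 CPM in unstimulated OSW-1 cells, 22.2 ± 10.9 CPM in itraconazole, 12.4 ± 0.66 CPM in 25HC and 3.59 ± 0.572 CPM in untreated WT cells. In OSW-1 cells with LPS it was at 0.495 ± 0.0186 CPM, against 3.48 ± 0.261 CPM in untreated WT cells with LPS (SD, n = 3 each).

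The genes closest to Cx3cl1 were the prefoldin subunit Vbp1 (r = 0.993), the Ras-pathway adaptor Grap (0.978), Erich1 (0.977), the zinc finger gene Zfp948 (0.959), the maturation marker Cd83 (0.946), the mitochondrial reductase Mecr (0.945), Def6 (0.943) and the apoptosis inhibitor Aven (0.942). Their single-library r lay between 0.87 and 0.948. Grap was at 189 ± 18.6 CPM in OSW-1 cells with LPS, against 15.5 ± 1.25 CPM in untreated WT cells with LPS (SD, n = 3 each). Since Cx3cl1 stands out in 1 group, these are genes whose highest group is the same one.

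Cx3cl1 lies in a chemokine cluster. Its nearest protein-coding neighbour on the side of lower coordinates is Ccl22, at a distance of 20481 bases, and on the other side Ccl17, at 28026 bases. Both encode chemokines that bind CCR4. Ccl22 was at 1430 ± 551 CPM in OSW-1 cells with LPS, 10.2 ± 2.87 CPM with itraconazole, 18.3 ± 9.41 CPM with 25HC, 1.71 ± 0.862 CPM in Ch25h-/- cells and 5.68 ± 2.62 CPM in untreated WT cells with LPS (SD, n = 3 each). It rose with OSW-1 among LPS-treated cells by 7.97 ± 0.49 (adjusted p = 3.69e-13) and with LPS in untreated WT cells by 4.72 ± 0.65 (adjusted p = 8.21e-07). Ccl17 rose with OSW-1 among LPS-treated cells by 5.21 ± 0.72 (adjusted p = 4.07e-06), to 12.1 ± 7.98 CPM, against 0.324 ± 0.188 CPM in untreated WT cells. In untreated WT cells it had 16 reads with LPS and 0 without. That is a 6.1-fold difference from a floor of 3 reads over the group, counting error of the 16 reads not included.

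The 3 chemokine genes thus had their highest level in OSW-1 cells with LPS. In untreated WT cells, LPS went with a higher Ccl22 and a lower Cx3cl1. The next neighbours moved less: with OSW-1 among LPS-treated cells, Ciapin1 rose by 1.19, Arl2bp by 0.98 and Coq9 by 0.23 on the log2 scale, and Pllp did not pass the filter. Around Cx3cr1 the same comparison called Csrnp1 (0.64), Slc25a38 (0.41) and Ttc21a (-1.46), and not Rpsa (-0.10). In unstimulated cells Xirp1, the nearest gene on the lower side, had 25 reads with OSW-1, 9 with itraconazole, 3 with 25HC and 0 in untreated WT cells. With a floor of 3 reads in place of 0, its level was 7.68-fold higher with OSW-1, counting error of the 25 reads not included. Ccr8, the receptor gene next to Cx3cr1, did not pass the filter. In GENCODE vM21, Gm33858 overlaps an exon of Cx3cr1 on the opposite strand. The library kit keeps strand, but the counting's strand setting is not given in the sources used here, so a part of its reads in the Cx3cr1 count cannot be told apart.

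Of 12 genes that cut fractalkine or steer that cutting, 11 were tested, and OSW-1 with LPS raised 3 and lowered 6 (median log2 fold change -0.57, against -0.06 over all genes tested). Of all genes tested, 71.4% were called in this comparison, 34.3% higher and 37.1% lower, so a large share of any list is called here. Adam17 and Adam10, the main fractalkine sheddases, fell by 0.57 ± 0.09 (adjusted p = 6.76e-06) and by 0.45 ± 0.07 (adjusted p = 1.3e-06). Tspan14, a tetraspanin that escorts ADAM10, fell by 1.48 ± 0.09 (adjusted p = 3.41e-13). Cathepsin S, encoded by Ctss, a protease that cuts fractalkine in spinal cord, was at 390 ± 117 CPM with OSW-1, against 4010 ± 313 CPM in untreated WT cells with LPS (log2 fold change -3.36 ± 0.23, adjusted p = 2.97e-12). The metalloproteinase inhibitor Timp1 was at 3.24 ± 3.17 CPM, against 134 ± 35.9 CPM (-5.34 ± 0.54, adjusted p = 2.58e-09). Rhbdf1, Rhbdf2 and Frmd8, which carry and steady ADAM17, rose by 1.90, 0.56 and 0.20.

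In unstimulated cells the list had 2 higher and 1 lower for OSW-1, 1 and 1 for itraconazole and 1 and 1 for 25HC, where 37.3%, 26.8% and 28.7% of all genes tested were called. Adam17 rose with each compound, by 0.76 ± 0.09 with OSW-1 (adjusted p = 7.64e-07), 0.43 ± 0.09 with itraconazole (adjusted p = 0.00132) and 0.26 ± 0.09 with 25HC (adjusted p = 0.0401). Timp3 had no read in unstimulated OSW-1 cells, against 10 reads in untreated WT cells. With a floor of 3 reads in place of 0, its level was 3.62-fold lower, counting error of the 10 reads not included.

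Soluble fractalkine also binds the integrins alpha v beta 3 and alpha 4 beta 1. Of their 4 subunit genes, OSW-1 with LPS lowered Itgb3 (-3.33 ± 0.73, adjusted p = 0.00026) and Itgb1 (-0.26 ± 0.08, adjusted p = 0.00396) and raised Itga4 (0.65 ± 0.17, adjusted p = 0.00125), a called share near the 71.4% of all genes tested. In unstimulated cells every compound raised Itgav, by 0.94 with OSW-1, 1.11 with itraconazole and 0.69 with 25HC. Itga4 was lower (-0.89, -0.57 and -0.83 in that order). The beta subunit genes Itgb3 and Itgb1 were not called with any compound. Of all genes tested, 37.3%, 26.8% and 28.7% were called in these comparisons.

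Of 22 genes that act below Gi-coupled chemokine receptors, OSW-1 with LPS raised 3 and lowered 16 (median -0.46), where 34.3% of all genes tested were higher and 37.1% lower. The G protein subunit genes Gng2 and Gnai2 fell by 2.18 ± 0.11 (adjusted p = 7.49e-15) and 0.76 ± 0.07 (adjusted p = 9.04e-10), and the phospholipase Plcb2 fell by 1.51 ± 0.13 (adjusted p = 2.7e-10). Gnai3 rose by 0.72 ± 0.07 (adjusted p = 3.23e-09). Itraconazole with LPS raised 6 and lowered 14, where 26.5% of all genes were higher and 27.9% lower, and 25HC with LPS raised 5 and lowered 11, where 20.8% were higher and 21% lower. Unstimulated, the counts were 5 and 5 for OSW-1, 4 and 4 for itraconazole and 4 and 5 for 25HC, not far from the 37.3%, 26.8% and 28.7% of all genes called. Rgs1, which shortens Gi signalling, rose in all 3 unstimulated comparisons, by 2.09 ± 0.42 with OSW-1 (adjusted p = 0.00037), 2.01 ± 0.42 with itraconazole (adjusted p = 0.000914) and 2.21 ± 0.42 with 25HC (adjusted p = 0.000348).

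Of the transforming growth factor beta arm, 10 genes were tested. Unstimulated OSW-1 cells had 5 higher and 1 lower (median 0.24, against 0 over all genes tested), itraconazole cells 3 and 1 and 25HC cells 4 and 1. Of all genes tested, 20.1% were higher and 17.2% lower with OSW-1, 14.4% and 12.4% with itraconazole and 15.9% and 12.8% with 25HC. The receptor gene Tgfbr1 rose by 1.38 ± 0.12 with OSW-1 (adjusted p = 6.56e-09), 0.97 ± 0.12 with itraconazole (adjusted p = 4.32e-06) and 0.71 ± 0.12 with 25HC (adjusted p = 0.000109). Skil and Smad7, feedback inhibitors of the pathway, rose too, Skil by 2.14, 1.70 and 1.30 and Smad7 by 1.46, 1.17 and 0.84 in the same order. With LPS, OSW-1 raised 3 and lowered 4 (median 0.11), near the 34.3% and 37.1% of all genes tested. Tgfbr2 fell by 1.93 ± 0.13 (adjusted p = 2.34e-12), Nrros, which presents latent ligand, fell by 1.24 ± 0.14 (adjusted p = 1.27e-08), and Smad4 rose by 1.28 ± 0.09 (adjusted p = 9.26e-12).

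Of 13 genes known as microglial markers beside Cx3cr1, 10 were tested. In unstimulated cells they moved both ways: OSW-1 raised 3 and lowered 3 (median -0.30), itraconazole raised 3 and lowered 3 (median -0.31) and 25HC raised 1 and lowered 4 (median -0.21), where 37.3%, 26.8% and 28.7% of all genes tested were called. Olfml3, a secreted matrix protein, was at 25.6 ± 7.43 CPM with OSW-1, 15.2 ± 0.252 CPM with itraconazole, 7.17 ± 1.32 CPM with 25HC and 0.449 ± 0.187 CPM in untreated WT cells (SD, n = 3 each). Its log2 fold changes were 5.80 ± 0.54 (adjusted p = 1.16e-08), 5.05 ± 0.54 (adjusted p = 3.97e-07) and 3.96 ± 0.54 (adjusted p = 5.85e-06). The orphan receptor gene Gpr34 was lower in all 3 comparisons (-1.09 with OSW-1, -2.13 with itraconazole and -2.27 with 25HC).

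With LPS most of the list was lower in OSW-1 cells: 0 higher and 9 lower against untreated WT cells (median -3.59, also with low-read genes at their bound), where 37.1% of all genes tested were lower. The lipid receptor gene Trem2 was at 11.2 ± 2.73 CPM with OSW-1, against 201 ± 20.9 CPM in untreated WT cells with LPS (SD, n = 3 each; log2 fold change -4.17 ± 0.24, adjusted p = 1.63e-13). Fcrls fell by 4.12 ± 0.33 (adjusted p = 4.66e-11) and the transcription factor gene Mef2c fell by 2.60 ± 0.23 (adjusted p = 3.13e-10). P2ry12, the purine receptor of microglial processes, had 2 reads with OSW-1, against 310 in untreated WT cells, a level 253 times lower (95% interval 69.5 to 2100, counting error only). Itraconazole with LPS lowered 7 and raised 0 (median -1.56), and 25HC with LPS lowered 7 and raised 0 (median -1.33), where 27.9% and 21% of all genes tested were lower, although Cx3cr1 libraries overlapped the untreated ones in both.

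**Figure D4:**
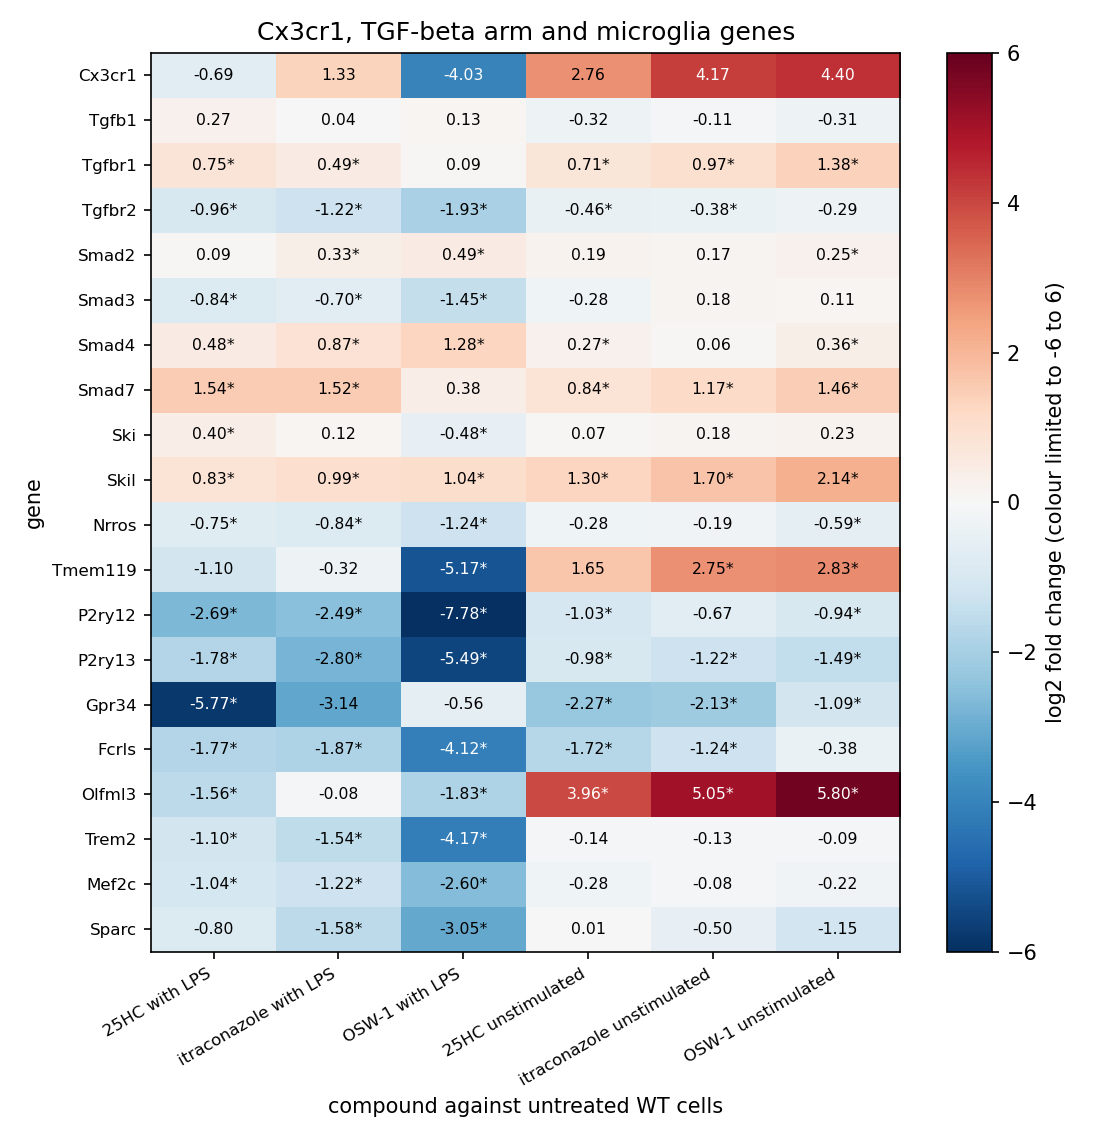
Log2 fold change against untreated WT cells (edgeR) of Cx3cr1, 10 genes of the transforming growth factor beta arm and 9 microglial genes, with LPS in the 3 left columns and unstimulated in the 3 right ones; an asterisk marks an adjusted p under 0.05, and Cx3cr1 carries none because it was not tested. Olfml3 follows Cx3cr1 in unstimulated cells, and most microglial genes are lowest in OSW-1 cells with LPS; values of Gpr34 with LPS and of P2ry12 in OSW-1 with LPS come from groups with few or no reads and are approximate.

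Cx3cr1 also separates monocyte subsets. Of 6 nonclassical monocyte genes, OSW-1 with LPS raised 3 and lowered 2 (median 0.60, or 0.65 with low-read genes at their bound), where 34.3% of all genes tested were higher and 37.1% lower. Nr4a1, the nuclear receptor on which nonclassical monocytes depend, was at 41.2 ± 7.76 CPM, against 1.07 ± 0.31 CPM in untreated WT cells with LPS (5.26 ± 0.41, adjusted p = 2.83e-11). The sialomucin gene Spn rose by 3.21 ± 0.27 (adjusted p = 8.2e-11) and the integrin gene Itgal by 2.02 ± 0.28 (adjusted p = 4.69e-07). The lowered genes were the scavenger receptor gene Cd36, at 441 ± 59.2 CPM against 781 ± 137 CPM in untreated WT cells with LPS (-0.82 ± 0.14, adjusted p = 1.56e-05), and Treml4, at 3.21 ± 0.866 CPM against 6.72 ± 3.1 CPM (-1.06 ± 0.42, adjusted p = 0.0278). Of 5 classical monocyte genes, OSW-1 with LPS raised 1 and lowered 4 (median -4.42), beside the same shares of all genes. The chemokine receptor gene Ccr2 fell by 4.42 ± 0.51 (adjusted p = 2.39e-08), while the proteoglycan gene Vcan rose by 1.79 ± 0.15 (adjusted p = 1.3e-10). F13a1 had 3 reads, against 1058 in untreated WT cells, a level 576 times lower (95% interval 197 to 2800, counting error only). In unstimulated cells, Itgal rose with each compound, by 1.91 with OSW-1, 1.72 with itraconazole and 1.78 with 25HC, and F13a1 was lower (-3.07, -3.01 and -3.34).

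Cxcl16, the other chemokine made as a transmembrane protein, moved differently from Cx3cl1. It was at 446 ± 29.1 CPM in unstimulated OSW-1 cells, 271 ± 23.4 CPM in itraconazole, 225 ± 5.2 CPM in 25HC and 134 ± 38.5 CPM in untreated WT cells (SD, n = 3 each), and rose in all 3 comparisons (adjusted p = 4.49e-09, 2.24e-05 and 0.00049). With LPS it was at 434 ± 24.3 CPM in OSW-1 cells, against 661 ± 81.2 CPM in untreated WT cells (-0.61 ± 0.15, adjusted p = 0.000781).

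NF-kappaB is a known inducer of fractalkine in other cell types. Of 8 of its feedback and target genes, OSW-1 with LPS raised 7 and lowered 0 (median 0.83), where 34.3% of all genes tested were higher. Nfkb1 rose by 2.28 ± 0.11 (adjusted p = 9.64e-15), Nfkb2 by 2.27 ± 0.16 (adjusted p = 4.22e-12) and Tnfaip3 by 2.25 ± 0.26 (adjusted p = 2.3e-08). Itraconazole with LPS raised 5 and lowered 0, and 25HC with LPS raised 5 and lowered 0, where 26.5% and 20.8% of all genes tested were higher. In unstimulated OSW-1 cells, where 20.1% of all genes were higher and 17.2% lower, 6 were higher and 1 lower, the adhesion molecule gene Vcam1 (-2.74 ± 0.29, adjusted p = 8.67e-08). LPS over unstimulated raised 7 of the list and lowered 0 in untreated WT cells (median 1.68), where Cx3cl1 was lower. Counts were 8 and 0 in OSW-1, itraconazole and 25HC cells and 6 and 0 in Ch25h-/- cells. Of all genes tested, 28% to 34.8% were higher. Responses minus the untreated one had 3 higher and 0 lower with OSW-1 (median 0.41), 3 and 1 with itraconazole (0.5) and 3 and 0 with 25HC (0.72). The part of these genes in the ligand level was not tested. In unstimulated Ch25h-/- cells no member of any of these lists was called against WT, where 0.00759% of all genes tested were called. With LPS 1 NF-kappaB gene was called, lower, where 0.228% of all genes tested were called. At such shares a short list would rarely hold a called gene.

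The summed level of 8 macrophage markers was 9880 to 12600 CPM in OSW-1 libraries with LPS, against 24800 to 36100 CPM in untreated WT libraries with LPS. Of these markers 7 were lower and 1 higher. Lyz2, encoding lysozyme, made up much of the sum in untreated WT cells, at 15300 ± 5100 CPM against 1850 ± 781 CPM in OSW-1 cells. The one that rose was the LPS co-receptor gene Cd14, at 4880 ± 328 CPM in OSW-1 cells against 908 ± 110 CPM (SD, n = 3 each). Cd14 was the largest part of the sum in OSW-1 cells. The part of the macrophage markers in the ligand level was not tested. The 5 endothelial markers summed to 11.4 to 14.1 CPM in OSW-1 libraries, with Tek and Tie1 at 0 reads, against 21.7 to 30.1 CPM in untreated WT libraries, and the 4 epithelial ones to 0 to 0.0688 CPM, with Epcam, Krt8 and Krt18 at 0, against 0 to 0.0608 CPM. The 7 fibroblast markers, all detected, summed to 15.6 to 22.5 CPM, against 8.94 to 16 CPM, but of the 6 tested 5 were lower and 1 higher (median -2.15). The higher sum came from Pdgfrb, a growth factor receptor gene, at 15.7 ± 3.54 CPM against 0.989 ± 0.358 CPM, while the collagen gene Col1a2 was at 0.494 ± 0.307 CPM against 2.55 ± 0.987 CPM. Their part in the ligand level was not tested either. The 5 T and NK cell markers were all at 0 in OSW-1 libraries, against 0 to 0.243 CPM. B cell, neutrophil and dendritic cell markers summed to at most 0.187, 3.13 and 1.96 CPM in OSW-1 libraries, against at most 0.122, 11.2 and 0.851 CPM in untreated WT libraries. The 1 dendritic marker tested, Zbtb46, was called higher, at 1.47 ± 0.615 CPM against 0.304 ± 0.123 CPM (log2 fold change 2.27). The 2 neutrophil markers tested were called lower (median -1.97), where 34.3% of all genes tested were higher and 37.1% lower. No B cell marker was tested. In such bulk libraries, fewer cells of a type and less RNA per cell cannot be told apart. The OSW-1 libraries with LPS also differ from the untreated WT ones in count parity. With the even libraries halved, the log2 fold changes of both genes stayed within the spread between libraries. Since a doubling of a whole library cancels in CPM, halving could hardly have moved them. Any other processing difference that goes with parity cannot be told apart from OSW-1 in this comparison. The unstimulated OSW-1 libraries held even counts only, so it cannot be told apart from LPS within OSW-1 cells either. The difference between the OSW-1 and untreated responses holds it too. Between Ch25h-/- and WT cells it cannot be told apart from genotype.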

How the data were processed

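PolyA-selected, stranded libraries of macrophage RNA were counted per gene by the authors, and the deposited values are raw counts. Per the submitters' processing notes, the tools were FastQC 0.11.9, GSNAP, featureCounts of Subread 1.5.2 and edgeR 3.26.8, with GRCm38/mm10. From these counts, edgeR 4.0.16 (R 4.3.3, limma 3.58.1) gave TMM-scaled CPM and a quasi-likelihood fit of all 30 libraries, over 13173 genes kept by filterByExpr at a minimum count of 10. Adjusted p is Benjamini-Hochberg over those genes, and a standard error is the size of the log2 fold change over the root of its F value. Standard errors share 1 spread across groups and measure differences between these samples. Lists and neighbours were matched through GENCODE vM21 (Adgre1 and Grk2 stand under older symbols).

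The members and gene lists were chosen with earlier results of these data known. Named genes were per list the 4 lowest p among called members, 3 neighbours a side and 8 genes by likeness. Genes flagged for opposite LPS responses, and a few list members shown for their role (Adam17, Rhbdf1, Rhbdf2, Frmd8, P2ry12, Gpr34, Cxcl16, Treml4, Lyz2, Cd14, Pdgfrb, Col1a2), were named after their values were seen. Mouse numbers pair libraries of 1 animal within a genotype, per the labels. The main fit used group means only, so its standard errors and p-values leave this pairing out. After group means were removed, 22 of 24 WT and 6 of 6 Ch25h-/- libraries correlated best with their own number (median r 0.086 and 0.091). Intervals are exact binomial at 95%. Alternatives were DESeq2 1.42.0, its size factors, no filter, a replicate block, halved even libraries and leaving out each library. Figures used Python 3.11.15 and matplotlib 3.10.9. A few list members count in their list but are not reported here. The fit was tested on simulated data.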

Additional observations from a re-analysis of the deposited data

Results flagged for a closer look

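The LPS response of Cx3cl1 was 5.10 in OSW-1 cells, against -4.52 in untreated WT cells, on the log2 scale. In each of the 3 WT mice, OSW-1 cells moved one way and untreated cells the other. The difference of 9.62 was not tested because the gene was chosen for it.

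Among the lists around the pair, several genes had LPS responses called in opposite directions with and without a compound, and the difference itself was called (edgeR, adjusted over all genes tested). They were picked for those opposite calls, which nearly fix a called difference in advance, so its adjusted p is no separate support. Of all genes tested, this difference was called in 51.7% for OSW-1, 26.3% for itraconazole and 12.3% for 25HC. The share of all genes with opposite calls is not given. In OSW-1 cells, genes that were higher with LPS in untreated cells were lower with it. The differences were -7.99 ± 1.14 for Tmem119 (adjusted p = 3.1e-06), -7.63 ± 0.79 for Olfml3 (adjusted p = 2.67e-08) and -3.22 ± 0.31 for Ctss (adjusted p = 6.19e-09). They were smaller for the kinase gene Ptk2b, -1.91 ± 0.22 (adjusted p = 1.07e-07), Smad3, -1.56 ± 0.28 (adjusted p = 5.33e-05), and Adam17, -1.33 ± 0.13 (adjusted p = 1.44e-08). Nr4a1 went the other way: with LPS it was higher in OSW-1 cells (2.97) and lower in untreated cells (-1.68), a difference of 4.64 ± 0.53 (adjusted p = 1.05e-07). With 25HC the Nr4a1 difference was 3.14 ± 0.54 (adjusted p = 0.000578) and the Olfml3 difference -5.52 ± 0.77 (adjusted p = 7.88e-05). With itraconazole the Olfml3 difference was -5.12 ± 0.73 (adjusted p = 2.88e-05).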

How the results depend on the processing

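Few reads limit Cx3cl1 outside OSW-1 cells with LPS, and Cx3cr1 within them. Another tool, other size factors, no filter, halved even libraries and the replicate block each left every fold change of the pair within the spread between libraries: with the replicate block, Cx3cl1 for OSW-1 with LPS was 9.23 and Cx3cr1 for unstimulated OSW-1 was 4.42. Halving could hardly do otherwise, since a doubling of a whole library cancels in CPM. The counts of genes called for Ch25h-/- did move. Unstimulated, 1 gene became 5 with DESeq2 size factors, 2 with no filter, 6 with halved libraries, 129 with DESeq2 and 139 with the replicate block. With LPS, 30 became 81 with no filter, 58 with halved libraries, 230 with DESeq2 and 203 with the replicate block, and the difference of responses went to 8 with DESeq2 (0 with edgeR). The 139 and 203 are not sound counts, since the block takes out differences between mice and the genotypes are compared between mice. The replicate block moved no other count over all genes tested by 1.5 times and turned the sign of no fold change of the pair. Among the counts of called list members, 45 were higher and 63 lower by over 1.5 times under some alternative.

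Leaving out 1 library at a time gave 2359 to 4032 genes for unstimulated 25HC, 2243 to 3209 for unstimulated itraconazole, 1 to 361 for unstimulated Ch25h-/-, 0 to 2396 for Ch25h-/- with LPS, 889 to 2076 for the 25HC difference and 0 to 716 for the Ch25h-/- difference. The highest Ch25h-/- counts came without mouse 3 of untreated WT. For Cx3cr1, itraconazole with LPS ran from -0.28, a change of sign without its mouse 3, to 1.99. Cx3cr1 ran from -1.34 to -0.04 for 25HC with LPS, -4.34 to -3.38 for OSW-1 with LPS, -5.63 to -4.62 for LPS in 25HC, -5.97 to -3.91 for LPS in itraconazole, -2.18 to -1.21 for LPS in untreated WT and -0.23 to 0.72 for Ch25h-/- with LPS. Its response differences ran from -4.10 to -2.80 (25HC), -4.45 to -2.18 (itraconazole), -8.74 to -7.78 (OSW-1) and 0.35 to 1.30 (Ch25h-/-). Cx3cl1 ran from 8.97 to 9.92 for OSW-1 with LPS, 1.90 to 3.19 for 25HC with LPS, 1.38 to 2.46 for itraconazole with LPS, -2.02 to -0.94 for LPS in 25HC, -4.81 to -0.07 for Ch25h-/- with LPS, -5.22 to -4.26 for LPS in untreated WT and -9.28 to -4.68 for LPS in Ch25h-/-. Its response differences ran from 2.50 to 3.79 (25HC), 1.45 to 2.53 (itraconazole), 9.37 to 10.31 (OSW-1) and -4.76 to -0.01 (Ch25h-/-). The cause of these shifts was not tested.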
